A study of Mus musculus with 5 samples.

Results

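The genes described here are 40 members of the NRF2 and glutathione antioxidant system, taken from a fixed list of names, and all 40 were found among the 31052 genes counted in mouse lung cells. They were followed in alveolar type 2 (AT2) cells, endothelial cells and mesenchymal cells of lungs in which AT2 cells had or had not lost β1 integrin. All mice were adult C57BL/6 animals with a floxed Itgb1 allele, and each group was 1 library that pooled 3 mice whose cells carried different hashtag antibodies. The groups were Itgb1 fl/fl mice 7 days after LPS, Itgb1 iKO mice 7 days after LPS, Itgb1 iKO mice 7 days after PBS, Itgb1 fl/fl mice 21 days after LPS and Itgb1 iKO mice 21 days after LPS, and they are called β1 fl/fl and β1 AT2-KO below. In β1 AT2-KO mice, an SP-C promoter drove a doxycycline-induced Cre, so that deletion was aimed at AT2 cells alone. Control littermates lacked that system, carried the floxed allele and also received doxycycline. LPS or PBS was given once into the trachea. Cells were sorted as viable, CD45-negative and Ter119-negative, and at 21 days they were also enriched for CD326-positive epithelial cells. β1 fl/fl mice given PBS were not analysed here.

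NRF2, the product of Nfe2l2, is a transcription factor that KEAP1 marks for degradation in resting cells. When oxidants or electrophiles modify KEAP1, NRF2 accumulates and binds antioxidant response elements near genes that make glutathione, reduce thioredoxin, detoxify electrophiles and supply NADPH. Alveolar epithelium lies at the air surface, and it is known for a large glutathione pool in the fluid that lines it. Metallothioneins, which also belong to the list, are induced through metal response elements by zinc, by glucocorticoids and during inflammation.

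Of the members, 34 had a promoter window in the RefSeq table for GRCm38.p6, and 44 windows were searched on both strands over the 250 bases before each annotated start. Gclc, Gsr, Hmox1, Gsta4, Prdx6 and Sod3 had no window and were not searched. A member counted if any of its windows held a match, whereas the shares are per window. The core of the antioxidant response element, TGACNNNGC, was found in windows of 8 members (Nfe2l2, Gclm, Txnrd1, Prdx1, Sod1, Mgst1, G6pdx and Mt2) and in 10.2% of all 32851 windows. The core of the metal response element, TGCACNC or TGCGCNC, was found in windows of 8 members (Gclm, Txnip, Srxn1, Gstm1, G6pdx, Pgd, Mt1 and Mt2) and in 21.4% of all windows. The AP-1 site TGANTCA, which can overlap an antioxidant response element and does so in the windows of Prdx1 and Mt2, was found in those of 4 members (Srxn1, Prdx1, Gstp1 and Mt2) and in 6.75% of all windows. A match is a description of the letters and not of binding.

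The windows of Mt1, Mt2, Txnip and Txnrd1 are shown as examples of genes that responded to LPS in endothelial cells, as described below, and hold a match. Mgst1, Gstm1, Srxn1 and Gstp1 also did both and are not shown. Capitals mark the metal response element core in the first 3 and the antioxidant response element core in Txnrd1, in either orientation. In the GENCODE annotation, the earliest transcript of Mt2 starts 46 bases downstream of the RefSeq start, further Mt1 transcripts start 122 and 152 bases downstream, and the Txnrd1 window is 1 of 3 for that gene.
Mt1 promoter, chr8:94178839-94179088, plus strand: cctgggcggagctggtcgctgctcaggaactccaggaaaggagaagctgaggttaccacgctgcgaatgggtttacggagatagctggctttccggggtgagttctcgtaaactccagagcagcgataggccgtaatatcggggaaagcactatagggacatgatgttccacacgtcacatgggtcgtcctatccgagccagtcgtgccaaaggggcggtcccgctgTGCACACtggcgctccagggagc
Mt2 promoter, chr8:94172368-94172617, plus strand: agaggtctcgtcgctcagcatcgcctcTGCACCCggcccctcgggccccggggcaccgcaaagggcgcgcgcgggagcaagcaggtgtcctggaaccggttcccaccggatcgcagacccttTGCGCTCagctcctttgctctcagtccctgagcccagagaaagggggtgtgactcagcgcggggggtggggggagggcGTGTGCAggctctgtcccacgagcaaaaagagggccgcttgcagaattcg
Txnip promoter, chr3:96557707-96557956, plus strand: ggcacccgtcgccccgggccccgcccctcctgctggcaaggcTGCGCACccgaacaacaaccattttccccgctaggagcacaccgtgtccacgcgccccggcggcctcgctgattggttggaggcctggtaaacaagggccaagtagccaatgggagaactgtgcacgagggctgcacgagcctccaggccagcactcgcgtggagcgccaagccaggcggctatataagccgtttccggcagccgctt
Txnrd1 promoter, chr10:82858956-82859205, plus strand: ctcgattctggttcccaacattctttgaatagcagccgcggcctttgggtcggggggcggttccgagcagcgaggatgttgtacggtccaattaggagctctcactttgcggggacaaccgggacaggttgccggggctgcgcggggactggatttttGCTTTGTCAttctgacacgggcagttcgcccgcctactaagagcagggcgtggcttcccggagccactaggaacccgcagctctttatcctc

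Depth and the check of the labels were as follows. After cells with under 700 genes or outside 0.1 to 15% mitochondrial UMIs were removed, the libraries held 2222 to 8660 cells, of which 50.3% to 78.7% carried a single hashtag. Values are unique molecular identifiers (UMIs) of a gene per 1000000 UMIs of the cells summed (CPM), per mouse. AT2 sums of 13 mice held 9 to 302 cells and 75133 to 2677232 UMIs, endothelial sums of 15 mice 144 to 2289 cells and 323079 to 6126725 UMIs, and mesenchymal sums of 13 mice 7 to 161 cells and 23072 to 1223147 UMIs. Only 1 mouse given PBS had enough AT2 cells (9 cells), and only 1 had enough mesenchymal cells (7 cells). In AT2 cells 21 days after LPS, Itgb1 had 361, 325 and 378 CPM in β1 fl/fl and 143, 180 and 148 CPM in β1 AT2-KO mice (log2 difference −1.27, edgeR adjusted p = 1.69e-07). At 7 days it had 260, 238 and 306 against 216, 152 and 196 CPM (−0.63, adjusted p = 0.0349), a call that was lost without β1 fl/fl mouse 1 (adjusted p = 0.149), without β1 fl/fl mouse 3 (0.0931) or without β1 AT2-KO mouse 2 (0.180). All 11 AT2 markers were found in the AT2 cells of every library, and Cdh5 and Pecam1, which the gate excluded, were at 0. Club cell markers in AT2 cells summed to 17519 CPM in 1 β1 fl/fl mouse 7 days after LPS and to 2653 CPM in the lowest mouse of that group, and their part in the AT2 results of day 7 was not tested. Free AT2 RNA also differed between libraries, since Sftpc in endothelial cells was 0.297% of its AT2 level after PBS, 1.28% to 1.99% in 3 of the LPS libraries and 7.48% in β1 AT2-KO lungs at 21 days. Applied to the AT2 level of any other gene, that percentage gives the endothelial level that free AT2 RNA would account for. All 3 β1 fl/fl mice of day 7 were female and all 3 LPS-treated β1 AT2-KO mice of day 7 were male by their X- and Y-linked transcripts. At day 21 the other sex made up 37.4% of the cells that could be typed in β1 fl/fl mouse 1. It made up 16.2% in β1 AT2-KO mouse 2, 7.06% in mouse 1 and 4.85% in mouse 3. Sums named here as mice of day 21 may thus hold cells of more than 1 animal, which could narrow the spread between them. For the sex covariate β1 fl/fl mouse 1 was taken as male. Library pairs shared 24 to 164 barcodes. Because all mice of a group share 1 library, p-values measure the spread between mice within libraries, and a library effect and the group cannot be told apart.

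Set against endothelial cells of the same mice, AT2 cells held higher levels of most of the system. Of 37 members tested, 24 were higher and 6 lower in AT2 cells (edgeR quasi-likelihood test with mouse as a block, Benjamini-Hochberg adjusted p under 0.05), while 21.7% of all 10635 genes tested were higher and 35.7% lower. The median log2 difference was 1.31 over the members and −0.37 over all genes. Fold changes here differ from the ratios of CPM. Each group has the same weight in them, also that of the only mouse given PBS, and TMM scaling allows for the share of AT2 UMIs taken by surfactant transcripts. Of these, Sftpc alone had 206905 to 247939 CPM. For some members, Txn1 and Taldo1 among them, the sign differs too, since their median CPM was lower in AT2 cells. Without the only mouse given PBS, 28 members were higher and 5 lower, and the median over all genes was −0.11. More of all genes were called higher as well, with 3249 higher and 3899 lower of 9601.

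Genes of glutathione conjugation and synthesis were among those with the largest AT2 excesses, beside Me1. Gsta4, a glutathione S-transferase that clears the lipid aldehyde 4-hydroxynonenal, ranged from 110 to 253 CPM in AT2 cells and from 0 to 21.2 CPM in endothelial cells (log2 difference 5.81). Mgst1, a membrane-bound glutathione transferase and peroxidase, ranged from 560 to 1070 against 8.16 to 67.0 CPM (5.04). Gclc, the catalytic subunit of glutamate-cysteine ligase, which is the rate-limiting enzyme of glutathione synthesis, ranged from 387 to 1278 against 29.2 to 83.6 CPM, a 21.9-fold excess (log2 difference 4.46 ± 0.10 SE, adjusted p = 2.23e-62). For these 3 genes the lowest AT2 mouse lay above the highest endothelial mouse.

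Gclm, the modifier subunit that pairs with the Gclc product, went the other way, with 19.4 to 59.1 CPM in AT2 and 66.4 to 95.4 CPM in endothelial cells (log2 difference −0.49, adjusted p = 0.0143), and no AT2 mouse reached the lowest endothelial mouse. The Gclm call was lost without β1 fl/fl mouse 3 of day 21 (adjusted p = 0.0709). Gss, which completes glutathione, did not pass the test at 5.95 to 33.5 against 12.3 to 21.7 CPM (0.69, adjusted p = 0.0676). It was called higher without the mouse given PBS (adjusted p = 0.00855), without β1 fl/fl mouse 1 (0.0353) or β1 AT2-KO mouse 2 (0.0419) of day 7 after LPS, and without the block (0.0480). Gsr, glutathione reductase, had 0 to 71.8 against 23.4 to 58.8 CPM, with a difference of −1.35 that did not pass and that turned to 0.71 (adjusted p = 1.44e-06) without the mouse given PBS, in which it was at 0. Slc7a11, the cystine transporter, was found at 0 to 9.92 CPM in AT2 and 0 to 0.979 CPM in endothelial cells, below what could be tested.

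Among the regulators, Nfe2l2 was higher in AT2 cells, at 269 to 494 against 182 to 319 CPM (log2 difference 1.31, adjusted p = 1.21e-22). Keap1 was lower, at 13.3 to 65.5 against 65.4 to 89.4 CPM (−0.59, adjusted p = 0.0224), but it did not pass without the mouse given PBS (adjusted p = 0.121) or without β1 AT2-KO mouse 2 of day 7 after LPS (0.0506). Hmox1 and Nqo1 are widely used readouts of NRF2 activity. Hmox1, heme oxygenase 1, was higher in AT2 cells at 47.9 to 88.4 against 9.12 to 22.8 CPM (2.54), whereas Nqo1, a quinone reductase, had 0 to 6.26 CPM in AT2 and 0 to 13.7 CPM in endothelial cells and was not tested.

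The enzymes that remove peroxides or superoxide were mostly higher in AT2 cells. Catalase (Cat) ranged from 231 to 489 against 56.6 to 93.0 CPM (log2 difference 2.61), and Prdx6, the lung peroxiredoxin that also acts in surfactant phospholipid turnover, from 447 to 738 against 104 to 167 CPM (2.68). Gpx1 (466 to 939 CPM in AT2 cells; log2 difference 2.28), Gpx4 (601 to 896; 1.32), Prdx1 (647 to 1015; 0.90), Prdx3 (39.9 to 131; 0.87), Prdx5 (106 to 193; 1.66) and mitochondrial Sod2 (110 to 200; 1.45) were higher as well. Prdx2 (106 to 273 CPM) and cytosolic Sod1 (31.3 to 106 CPM) did not pass, at −0.15 and 0.07. Gpx2, the epithelial glutathione peroxidase, reached 27.0 CPM in AT2 cells and 6.09 CPM in endothelial cells and did not pass, on few UMIs. The secreted enzymes went the other way. Gpx3, plasma glutathione peroxidase, had 0 to 12.5 against 37.1 to 77.1 CPM (−3.94), and extracellular Sod3 had 0 to 15.7 against 5.39 to 24.3 CPM (−2.60), an endothelial level set beside free mesenchymal RNA below.

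In the remaining roles, the ferritin chains Fth1 (2908 to 3885 CPM in AT2 cells, log2 difference 1.94) and Ftl1 (1391 to 2400 CPM, 1.05), which store iron, were higher in AT2 cells. The NADPH-producing enzymes Me1 (154 to 402 CPM, 4.62), Pgd (86.2 to 186 CPM, 2.75) and G6pdx (18.8 to 34.7 CPM, 1.26) were also higher. So was transketolase, Tkt (148 to 296 CPM, 1.31). Taldo1 (95.2 to 168 against 144 to 192 CPM, 0.21) passed only without the mouse given PBS (edgeR adjusted p = 0.00160). Of the thioredoxin genes, the reductase Txnrd1 (47.9 to 108 CPM, 2.24) was higher. Thioredoxin itself, Txn1 (192 to 369 against 231 to 366 CPM), was called higher after scaling (0.28). Its median over mice was lower in AT2 cells, at 256 against 312 CPM. The Txn1 call was lost with no filter on low counts (edgeR adjusted p = 0.141) and without β1 AT2-KO mouse 1 of day 7 after LPS (0.150). The thioredoxin inhibitor Txnip was lower, at 160 to 515 against 543 to 1404 CPM (−1.14), and sulfiredoxin, Srxn1 (0 to 31.3 CPM), had a difference of −0.65 that rests on the mouse given PBS, in which it was at 0, and without that mouse it was higher in AT2 cells (1.12, edgeR adjusted p = 9.85e-05). Mt1 (123 to 847 CPM, 4.10) and Mt2 (6.26 to 66.5 CPM, 3.67) were higher in AT2 cells, while Gstm1 was lower at 25.5 to 133 against 430 to 832 CPM (−2.66). Gstp1 was called higher after scaling (0.51), with overlapping levels of 330 to 559 against 339 to 623 CPM. Gsto1 had 0 to 4.79 CPM in AT2 and 0 to 9.29 CPM in endothelial cells and was not tested. Of 75 other genes of these pathways, 29 were higher and 18 lower in AT2 cells.

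**Figure D1:**
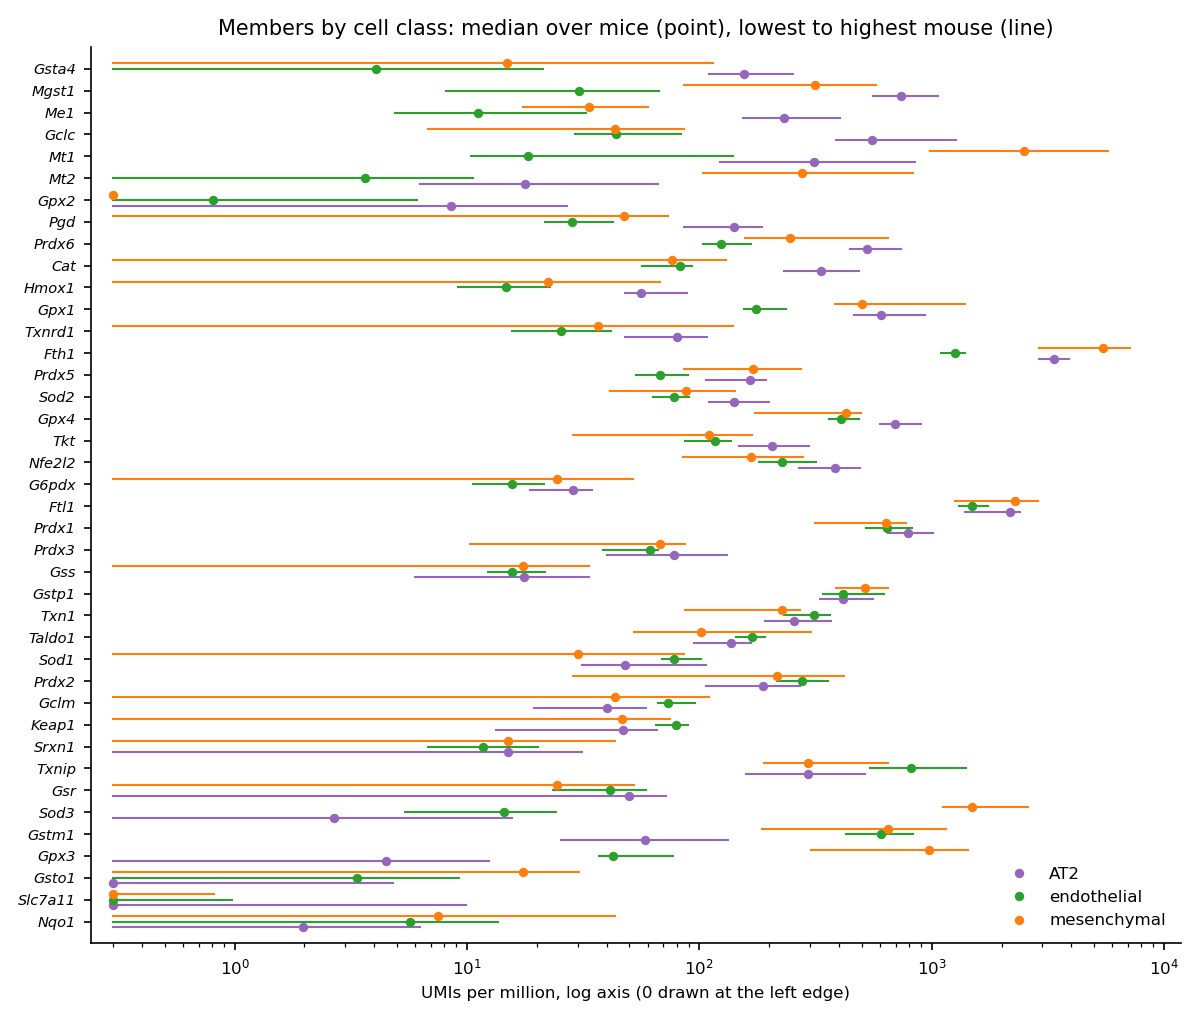
Level of each of the 40 members in AT2, endothelial and mesenchymal cells, as the median over mice in CPM on a log axis, with lines from the lowest to the highest mouse. Gclc, Mgst1, Gsta4 and Me1 sit far to the right in AT2 cells, and Sod3, Gpx3, Mt1 and Mt2 in mesenchymal cells.

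Mesenchymal cells were marked by metallothioneins and secreted enzymes. Of 38 members tested against endothelial cells of the same mice, 10 were higher and 9 lower, beside 9.45% higher and 28.4% lower among all 11347 genes, with medians of −0.32 over the members and −0.63 over all genes. The scaling matters here. Size factors of DESeq2 moved the all-gene median to −0.44 and gave 12 members higher and 7 lower, beside 1242 and 2275 of 11347 genes. Leaving out the 7-cell mouse given PBS moved that median to −0.13 and gave 17 and 7, beside 2346 and 2814 of 9531 genes. Sod3 ranged from 1114 to 2587 CPM in mesenchymal cells (log2 difference 6.47), Mt1 from 982 to 5770 CPM (6.08), Mt2 from 104 to 830 CPM (6.51) and Gpx3 from 303 to 1437 CPM (3.83), and in each the lowest mesenchymal mouse lay above the highest endothelial mouse. Gclc had 6.77 to 85.9 CPM in mesenchymal cells (−0.39, adjusted p = 0.342). Of 76 other pathway genes, 14 were higher and 18 lower.

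In AT2 cells 21 days after LPS, Gclc was the member with the smallest adjusted p between the genotypes, and it was higher in β1 AT2-KO cells. Of 35 members tested, 1 was higher (Gclc) and 1 lower (Txn1) in β1 AT2-KO cells, beside 1.22% higher and 1.62% lower of all 7845 genes, and Gpx3, Nqo1, Slc7a11, Sod3 and Gsto1 had too few UMIs to be tested. The median log2 difference was −0.05 over the members and 0.02 over all genes. At an unadjusted edgeR p under 0.05 there were 11 members, beside 1185 of all 7845 genes.

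Gclc (ENSMUSG00000032350; GRCm38 chr9:77754535-77794485, plus strand) had 468, 387 and 514 CPM in β1 fl/fl mice and 966, 976 and 1073 CPM in β1 AT2-KO mice. Every β1 AT2-KO mouse lay above every β1 fl/fl mouse, and the gap between the groups was wider than the range within either. The means were 456 ± 64.0 and 1005 ± 59.4 CPM (SD, n = 3 mice each), and the fitted difference was 2.06-fold (log2 1.04 ± 0.13 SE, 95% interval 0.77 to 1.31; edgeR adjusted p = 7.21e-06). The mixing of sexes under day 21 hashtags, given above, limits what these spreads show. Leaving out each of the 6 mice in turn gave 0.94 to 1.10, and Gclc was called under each of the 15 alternatives run. Counted over whole libraries, with hashtag-free cells included, Gclc had 456 CPM (95% Poisson interval 426 to 487) in 176 β1 fl/fl and 1083 CPM (1063 to 1103) in 1240 β1 AT2-KO AT2 cells. These intervals cover counting error only.

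Its partner Gclm did not pass the test. Gclm had 42.8, 59.1 and 19.4 CPM in β1 fl/fl and 43.5, 45.6 and 37.4 CPM in β1 AT2-KO mice, so the groups overlapped (log2 difference 0.16, 95% interval −0.35 to 0.67, adjusted p = 0.832), and without β1 fl/fl mouse 3 the sign turned to −0.40. Gsr had 18.7, 35.5 and 34.7 against 71.8, 52.3 and 49.7 CPM. The Gsr groups did not overlap, but the difference of 0.83 missed the threshold (adjusted p = 0.0753). Gsr was called with sex as a covariate and with no filter on low counts. Gss had 18.7, 11.8 and 16.7 against 22.9, 24.6 and 20.2 CPM. Slc7a11 was at 0 in each β1 fl/fl mouse and at 2.24, 1.34 and 2.99 CPM in β1 AT2-KO mice, too few for a test. Over whole libraries it had 0 UMIs in β1 fl/fl AT2 cells, which allows a level of up to 1.58 CPM, and 40 UMIs or 3.76 CPM in β1 AT2-KO AT2 cells.

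Txn1 (ENSMUSG00000028367; GRCm38 chr4:57943373-57956411, minus strand), which keeps protein thiols reduced, had 310, 301 and 369 CPM in β1 fl/fl and 243, 236 and 245 CPM in β1 AT2-KO mice. The groups did not overlap, and the difference was −0.54 (95% interval −0.81 to −0.27, edgeR adjusted p = 0.0212). That call was lost without β1 fl/fl mouse 3 (adjusted p = 0.142), without β1 AT2-KO mouse 1 (0.0509), mouse 2 (0.0738) or mouse 3 (0.0824), and with sex as a covariate (0.0621), at differences between −0.56 and −0.47.

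The regulators and the readouts of NRF2 activity did not pass the test. Nfe2l2 had 385, 334 and 343 CPM in β1 fl/fl and 425, 494 and 474 CPM in β1 AT2-KO mice, without overlap (log2 difference 0.31, adjusted p = 0.311). Keap1 had 58.8, 32.5 and 47.2 against 65.5, 63.0 and 48.6 CPM (0.25, adjusted p = 0.665). Hmox1 had 61.5, 53.2 and 48.6 against 88.4, 76.9 and 71.7 CPM, again without overlap (0.48, adjusted p = 0.221). Nqo1 was at 0 in the β1 fl/fl mice and at 2.24, 2.23 and 1.87 CPM in the β1 AT2-KO mice. Nqo1 had too few UMIs to be tested.

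Besides Gclc, Txn1, Gsr, Nfe2l2 and Hmox1, 6 members had an unadjusted p under 0.05, and they split in direction. Pgd was at 0.34, whereas Gstm1 (−0.61), Mt1 (−0.56), Cat (−0.47), Gpx4 (−0.38) and Tkt (−0.32) were below 0, with edgeR adjusted p from 0.0872 to 0.250 over these 6 genes. Among 68 other genes of these pathways, 3 were higher and 0 lower. Sqstm1, which encodes p62, an adaptor that captures KEAP1 and is itself an NRF2 target, had 481, 538 and 545 CPM in β1 fl/fl and 784, 799 and 793 CPM in β1 AT2-KO mice (0.51, adjusted p = 0.0350). Maff, a small MAF partner of NRF2, had 45.5, 44.3 and 31.9 against 85.7, 70.2 and 73.2 CPM (0.89, adjusted p = 0.0299), and Bach2, a repressor that binds related sites, had 32.1, 17.7 and 12.5 against 42.6, 39.3 and 38.8 CPM (0.99, adjusted p = 0.0423).

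**Figure D2:**
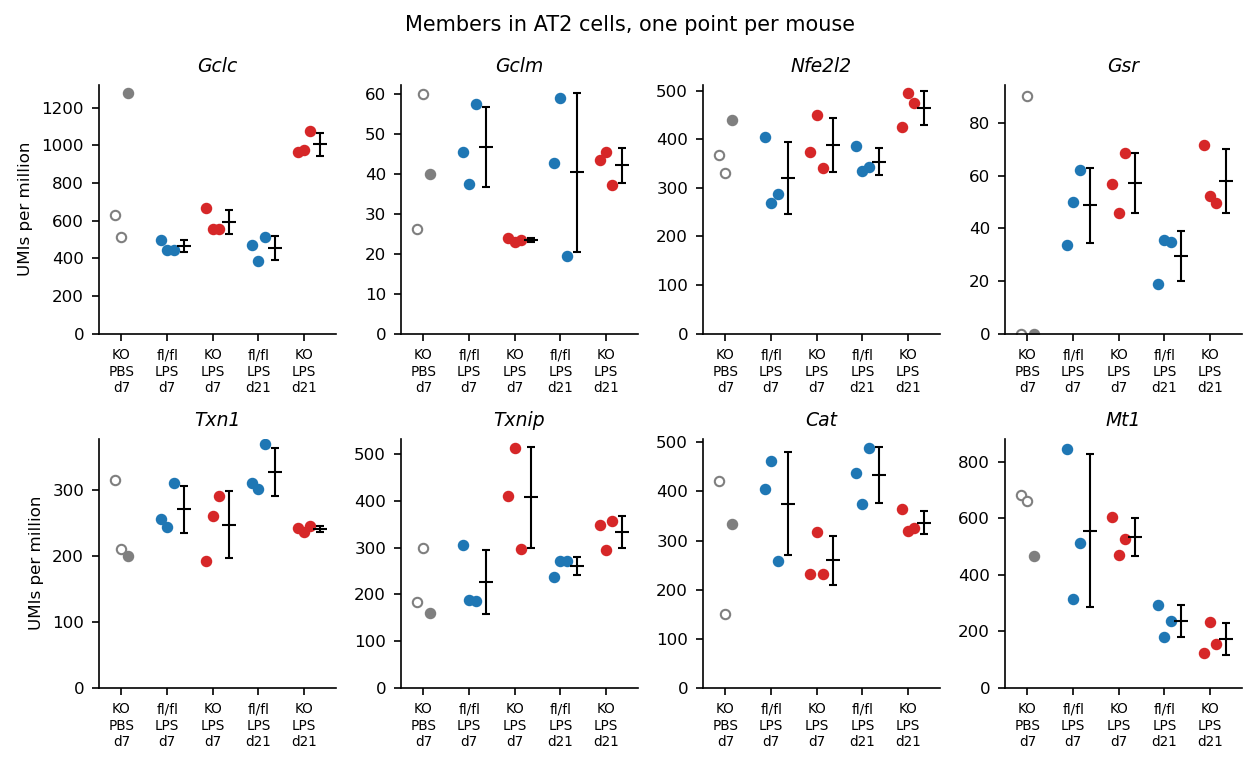
Levels of 8 members in AT2 cells in CPM, with 1 point per mouse and a bar for mean and SD over 3 mice; hollow points are mice given PBS with too few AT2 cells to enter a test. The 3 β1 AT2-KO mice of day 21 sit at 966 to 1073 CPM of Gclc, above the LPS-treated mice of every other group, whose highest is at 668.

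At 7 days after LPS, no member passed the test between β1 AT2-KO and β1 fl/fl AT2 cells. Of 35 members tested, 0 were called by edgeR, beside 1.61% of all genes in either direction. At an unadjusted p under 0.05 stood 5 members, beside 969 of all 7845 genes. The members' median was 0.03 and that of all genes 0.01. Gclc had 500, 444 and 445 CPM in β1 fl/fl and 668, 553 and 555 CPM in β1 AT2-KO mice. The groups did not overlap, at a difference of 0.25 (95% interval −0.04 to 0.54, adjusted p = 0.517).

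Gclm stood in the opposite direction at this time, with 45.6, 37.5 and 57.5 CPM in β1 fl/fl and 24.0, 23.0 and 23.5 CPM in β1 AT2-KO mice (log2 difference −1.09, adjusted p = 0.135). Txnip, which had 305, 188 and 187 against 411, 515 and 298 CPM, overlapped by 1 mouse of each group (0.68, adjusted p = 0.0717). Txnip passed without β1 fl/fl mouse 1 (adjusted p = 0.0187) and without β1 AT2-KO mouse 3 (0.0114). Cat had 405, 463 and 259 against 231, 318 and 232 CPM (−0.59, adjusted p = 0.106) and passed without β1 fl/fl mouse 3 (0.00785) or β1 AT2-KO mouse 2. Me1 had 242, 232 and 402 against 216, 224 and 159 CPM (−0.60, adjusted p = 0.111), and Ftl1 was at −0.37 (adjusted p = 0.253).

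The regulators overlapped between the genotypes at this time. Nfe2l2 had 405, 269 and 287 against 375, 449 and 341 CPM (log2 difference 0.14), Keap1 37.7, 43.8 and 47.9 against 53.9, 30.2 and 35.3 CPM (−0.25), and Hmox1 71.4, 56.3 and 47.9 against 77.9, 52.0 and 51.0 CPM (−0.20). Nqo1 stayed between 0 and 6.26 CPM and Slc7a11 between 0 and 9.92 CPM in these 6 mice. Of 68 other pathway genes, 1 was higher and 2 lower. Cyba, a subunit of superoxide-producing NADPH oxidases, had 169, 175 and 144 CPM in β1 fl/fl and 291, 246 and 306 CPM in β1 AT2-KO mice (0.68, adjusted p = 0.0417). Selenop, the selenium carrier, had 1022, 1007 and 733 against 530, 660 and 655 CPM (−0.67, adjusted p = 0.0104). Chac1, a glutathione-degrading enzyme, was found at 35.7, 0 and 19.2 CPM in β1 fl/fl mice and at 0 in each β1 AT2-KO mouse.

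Whether the genotype difference changed with time was tested as an interaction, although the time points also differ in epithelial enrichment. Of 35 members, 0 passed, beside 0.523% of all genes, and 6 had an unadjusted edgeR p under 0.05, beside 775 of all 7845 genes. The smallest adjusted p was that of Gclc, whose genotype difference was 0.79 larger at day 21 (95% interval 0.40 to 1.19, adjusted p = 0.0560). Gclc passed with size factors of DESeq2 (0.0479), with no filter on low counts, with the DESeq2 Wald test, with doublets removed, with at least 10 cells per mouse and without β1 fl/fl mouse 3 of day 7 (0.0329). Gclm was at 1.25 (adjusted p = 0.282), Me1 at 0.78, Hmox1 at 0.68, Gpx4 at −0.40 and Gsta4 at −0.52. The medians were −0.07 over members and −0.01 over all genes.

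**Figure D3:**
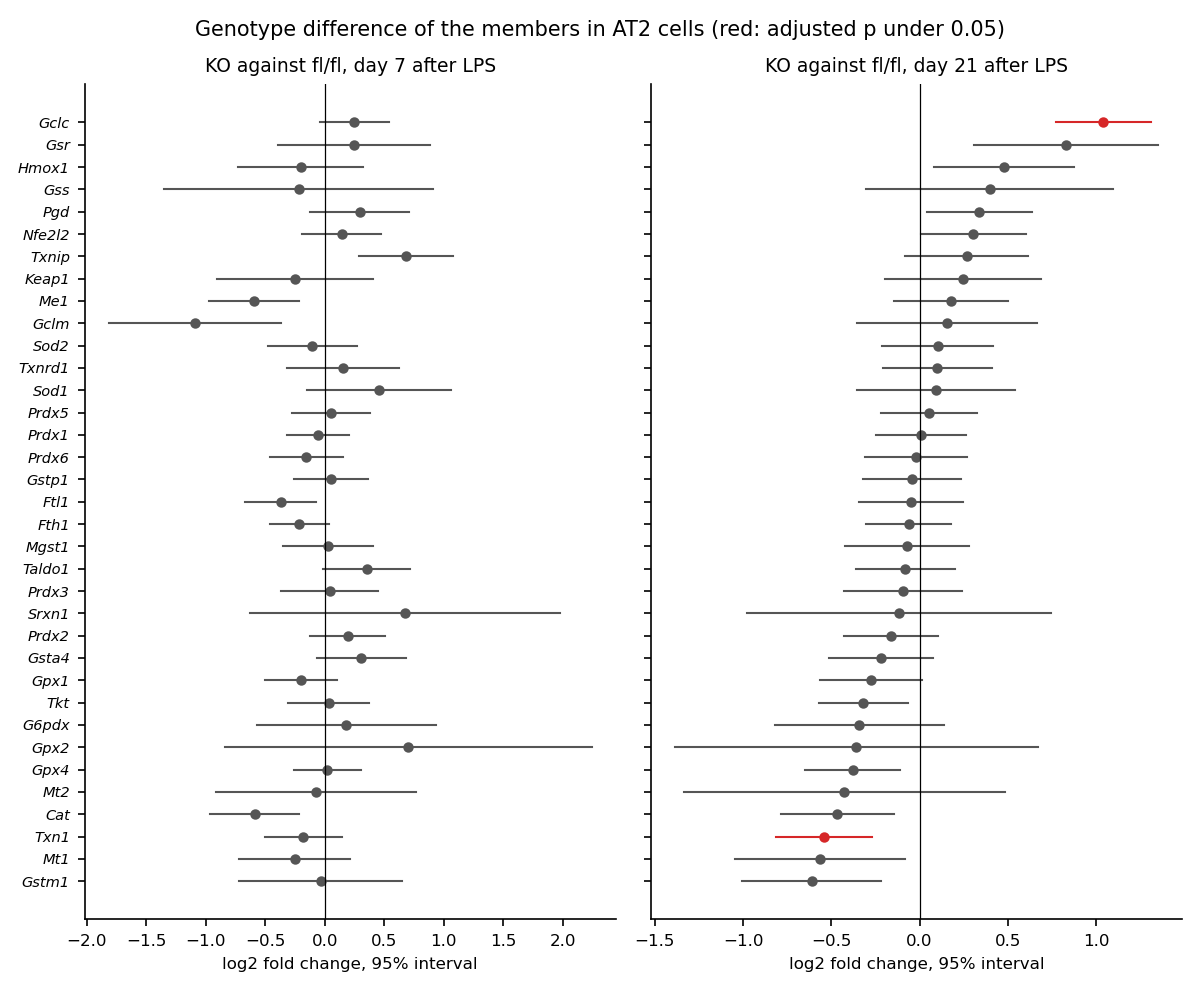
Log2 difference between β1 AT2-KO and β1 fl/fl AT2 cells for each member tested, with 95% intervals from edgeR, 7 and 21 days after LPS. Red points have adjusted p under 0.05 and the others are grey. At day 21 Gclc stands at 1.04 and Txn1 at −0.54, and no point is red at day 7.

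The comparison of LPS with PBS in β1 AT2-KO AT2 cells rests on 1 mouse given PBS. Of 35 members tested, 1 was lower after LPS, which was Gclc (log2 difference −1.13, edgeR adjusted p = 0.0105), beside 0.127% lower of all genes, and the median was −0.06 over members and 0.23 over all genes. Gclc had 1278 CPM in the PBS mouse tested, which had 9 AT2 cells, and 668, 553 and 555 CPM in the LPS-treated mice. The PBS mice left out had 632 CPM in 4 cells and 511 CPM in 2 cells, and with all 3 included the difference was −0.58 (adjusted p = 0.360). An AT2 gate at 10% Sftpc and another hashtag rule ended the call too (adjusted p = 0.652 and 0.676). Over whole libraries, Gclc had 844 CPM (95% Poisson interval 735 to 965) in 26 cells after PBS and 555 CPM (527 to 583) in 355 cells after LPS. Nfe2l2 (−0.18, adjusted p = 0.900), Gclm (−0.78), Keap1 (1.46) and Hmox1 (0.10) did not pass.

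In endothelial cells, LPS could be compared with PBS over 3 mice in each group. In β1 AT2-KO lungs 7 days after LPS, 9 of 38 members tested were higher and 6 lower than after PBS, beside 14.2% higher and 11.8% lower of all 11740 genes tested. The median was −0.05 over members and 0.02 over all genes. In bulk sums of a class, fewer cells of a subtype and less RNA per cell cannot be told apart, and the PBS group held 1 female and 2 male mice while the LPS group was male.

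The metallothioneins, which bind zinc and copper and scavenge oxidants, rose the most. Mt1 (ENSMUSG00000031765; GRCm38 chr8:94179082-94180327, plus strand) had 15.5, 14.2 and 10.8 CPM after PBS and 128, 140 and 114 CPM after LPS, an 8.68-fold rise (log2 3.12 ± 0.16 SE, 95% interval 2.79 to 3.44, edgeR adjusted p = 6.97e-10). Its neighbour Mt2 (ENSMUSG00000031762; chr8:94172664-94173568, plus strand) had 1.63, 1.40 and 0.789 CPM after PBS and 10.6, 9.29 and 7.48 CPM after LPS (2.68, adjusted p = 5.64e-05). Neither gene's groups overlapped. Free AT2 RNA would give 10.6 CPM of Mt1 in the LPS-treated and 1.68 CPM in the PBS-treated endothelial library. Free mesenchymal RNA, estimated in the same way from 6 mesenchymal markers that no gate used, which in endothelial cells had 1.06% of their mesenchymal level after LPS and 0.484% after PBS, would give 34.4 of the 130 CPM of Mt1 measured after LPS and 11.8 of the 18.5 CPM after PBS. For Mt2 it would give 3.502 of 9.37 CPM and 1.14 of 1.46 CPM. The part of this RNA in the endothelial results was not tested. The estimate takes all marker RNA in endothelial cells as free. Any that endothelial cells made themselves would raise it, which was not tested either. LPS-treated β1 fl/fl endothelial cells, which have no PBS group here, had 88.5, 58.1 and 76.4 CPM of Mt1 and 7.25, 4.89 and 7.11 CPM of Mt2. At 21 days after LPS, Mt1 was at 10.5 to 24.8 CPM over both genotypes, which was not tested because day and enrichment cannot be told apart.

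Other rises were in detoxifying and extracellular enzymes. Sod3 went from 10.6, 5.39 and 9.47 to 20.7, 24.3 and 21.3 CPM (log2 difference 1.26, adjusted p = 2.28e-04), and Txnrd1 from 16.2, 16.4 and 15.6 to 30.8, 27.1 and 41.8 CPM (0.94, adjusted p = 1.50e-04). Mgst1 went from 8.16, 16.8 and 17.8 to 34.7, 39.2 and 46.6 CPM (1.41, adjusted p = 3.29e-04). The groups of all 3 genes were separate. For Sod3, free mesenchymal RNA would give 9.72 CPM in the PBS-treated library, above the 9.02 CPM measured. In the LPS-treated library it would give 19.1 of the 22.4 CPM. Since this estimate can exceed the measured level, it does not fix how much of the endothelial Sod3 was free RNA. Free AT2 RNA would give 16.5 of the 43.5 CPM of Mgst1 in the LPS-treated library. Gsta4 went from 2.12, 1.80 and 1.97 to 5.19, 5.42 and 6.65 CPM (1.42, adjusted p = 0.00568), of which free AT2 RNA would give 3.24 CPM. With the AT2 share subtracted from each mouse, Mt1, Mt2, Sod3, Txnrd1 and Mgst1 were still called, and Gsta4 (0.84, adjusted p = 0.280) and Prdx6 (0.23, adjusted p = 0.148) were not. Gsto1 (2.01), Prdx5 (0.35) and Prdx6 (0.29) were the other members that rose, Prdx6 not with the AT2 share subtracted.

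Txnip (ENSMUSG00000038393; GRCm38 chr3:96557957-96561883, plus strand), an arrestin that binds thioredoxin and limits glucose uptake, fell. It had 1404, 1203 and 1224 CPM after PBS and 691, 818 and 543 CPM after LPS (log2 difference −1.01 ± 0.14 SE, adjusted p = 3.72e-05), with no overlap. Gstm1, a cytosolic glutathione transferase, had 685, 832 and 799 against 588, 604 and 430 CPM (−0.62, adjusted p = 0.00160). Srxn1 (−0.69), Gstp1 (−0.46), Ftl1 (−0.29) and Keap1 (−0.27, adjusted p = 0.0241) also fell. Keap1 had 81.0, 79.3 and 76.5 CPM after PBS and 71.5, 74.8 and 65.4 CPM after LPS, and its call was lost without β1 AT2-KO LPS mouse 3 (adjusted p = 0.134), PBS mouse 1 (0.0676) or PBS mouse 2 (0.0630). Srxn1 lost its call when any of 4 mice was left out, Prdx6 when any of 5 was left out, and Gstp1 without PBS mouse 3 (0.0592).

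The glutathione synthesis genes and Nfe2l2 did not pass in endothelial cells. Nfe2l2 had 203, 236 and 229 CPM after PBS and 210, 225 and 223 CPM after LPS (log2 difference −0.13, 95% interval −0.30 to 0.04, adjusted p = 0.268). Gclc had 38.5, 56.5 and 43.8 against 39.0, 46.5 and 39.9 CPM (−0.25, adjusted p = 0.207), and Gclm 76.5, 74.5 and 68.8 against 73.1, 75.6 and 70.4 CPM (−0.11, adjusted p = 0.433). Hmox1 had 14.2, 10.6 and 12.2 against a range of 14.7 to 16.1 CPM (0.19, adjusted p = 0.540), and Nqo1 5.71, 7.59 and 9.07 against 4.91, 7.48 and 13.3 CPM. All of these but Hmox1 overlapped. Of 76 other pathway genes, 6 were higher and 13 lower, Sqstm1 among the latter (−0.68, adjusted p = 1.76e-04).

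**Figure D4:**
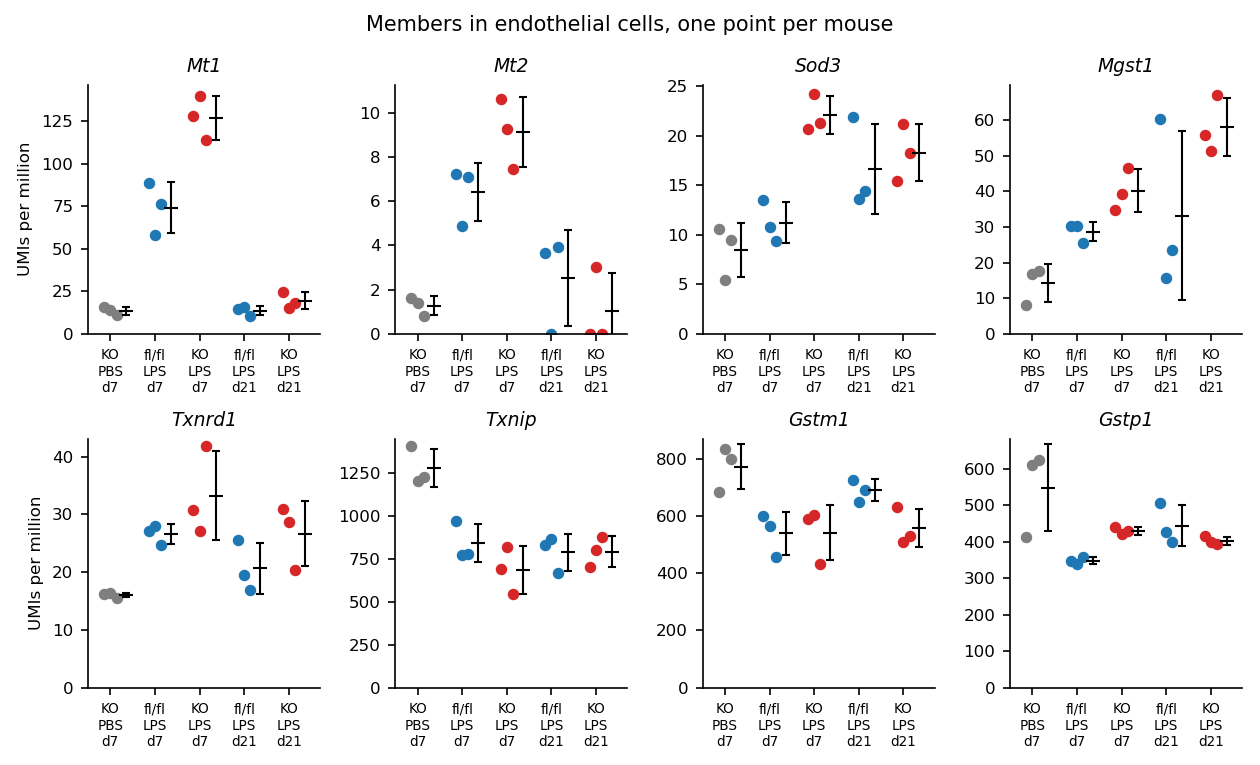
Levels of 8 members in endothelial cells in CPM, with 1 point per mouse and a bar for mean and SD over 3 mice. Mt1 sits at 114 to 140 CPM in LPS-treated and at 10.8 to 15.5 CPM in PBS-treated β1 AT2-KO mice of day 7, and Txnip is highest after PBS.

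Between genotypes, endothelial cells, in which Cre is not driven and Itgb1 did not pass the test (log2 difference 0.01 at day 7 and 0.10 at day 21), showed few calls among the members. At 7 days after LPS, 2 of 38 were higher in β1 AT2-KO lungs, beside 1.66% of all genes, and the medians were 0.04 and 0.01. Mt1 had 88.5, 58.1 and 76.4 CPM in β1 fl/fl and 128, 140 and 114 CPM in β1 AT2-KO mice (log2 difference 0.75, edgeR adjusted p = 0.00284), and Sod3 13.5, 10.8 and 9.41 against 20.7, 24.3 and 21.3 CPM (0.94, adjusted p = 0.0169), both without overlap. Free mesenchymal RNA would give 13.8 CPM of Sod3 in the β1 fl/fl library, which measured 12.5 CPM, and 19.1 of 22.4 CPM in the β1 AT2-KO library. It would give 15.1 of 75.4 CPM and 34.4 of 130 CPM of Mt1. Genotype and sex went together in these 6 mice. With sex as a covariate, which only the other groups can then inform, Mt1 was at 1.04 (adjusted p = 0.103) and Sod3 at 1.09 (0.186). Sod3 also lost its call without β1 fl/fl mouse 2 (0.0892), β1 fl/fl mouse 3 (0.0862) or β1 AT2-KO mouse 2 (0.0761). Of 76 other pathway genes, 2 were higher, Bach1 (0.48) and Cul3 (0.80), which are named because they are the only ones.

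At 21 days after LPS, 1 of 38 members was higher in β1 AT2-KO endothelial cells, beside 0.256% of all genes, with medians of 0.08 over members and −0.01 over all genes. It was Gsta4 (ENSMUSG00000032348; GRCm38 chr9:78182774-78209349, plus strand), with 0, 1.95 and 2.61 CPM in β1 fl/fl and 9.29, 21.2 and 8.13 CPM in β1 AT2-KO mice (log2 difference 3.04, adjusted p = 0.0470). These levels rest on 0, 1 and 2 UMIs against 3, 14 and 4 UMIs. Free AT2 RNA would give 9.77 of the 14.8 CPM in the β1 AT2-KO library and 1.88 CPM in the β1 fl/fl library, which measured 1.33 CPM. With the AT2 share subtracted, the difference was 3.05 (adjusted p = 0.393). The call was also lost without any 1 of the 6 mice (adjusted p from 0.0633 to 0.342) and with sex as a covariate (0.0656). Gclc had 56.6, 56.6 and 39.2 against 83.6, 65.1 and 60.9 CPM in these cells (0.45, adjusted p = 0.489). In the β1 AT2-KO library the AT2 share of Gclc, 81.0 CPM, exceeded the 74.2 CPM measured, so its endothelial level there is not distinguishable from free AT2 RNA. Subtracting that share leaves almost no Gclc in β1 AT2-KO endothelial cells and gives a called difference of −3.59 (edgeR adjusted p = 0.0186), which the subtraction itself fixes.

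**Figure D5:**
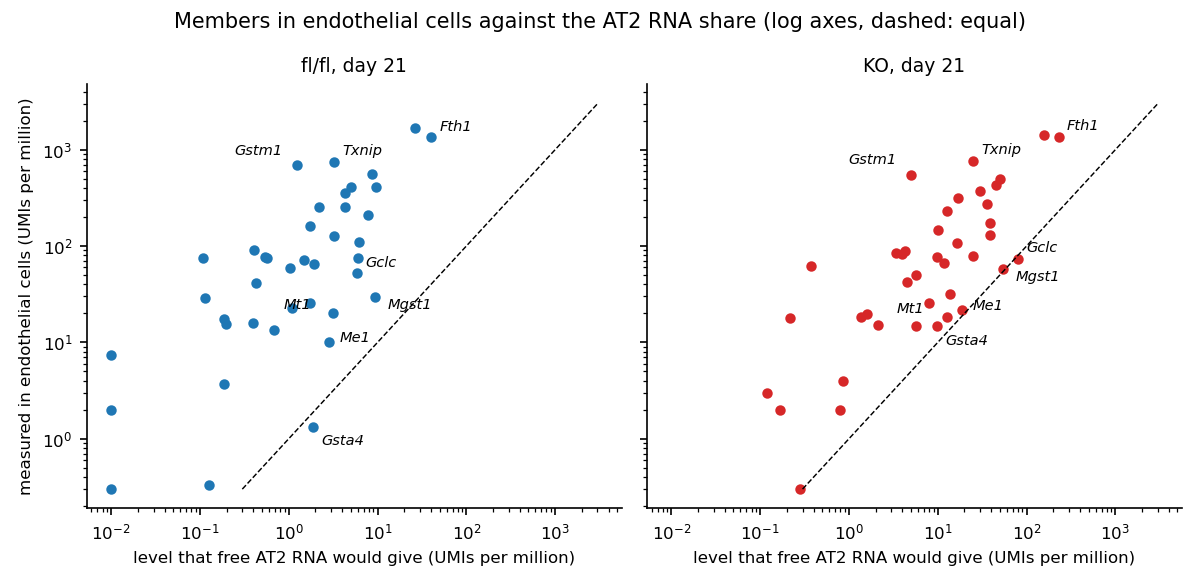
Measured level of each member in endothelial cells at day 21 against the level that free AT2 RNA would give, estimated from Sftpc, in CPM on log axes. In β1 AT2-KO lungs Gclc, Mgst1, Gsta4 and Me1 lie on or near the dashed line of equality; values of 0 are drawn at the axis floor.

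Testing the genotype difference in AT2 against that in endothelial cells of the same mice gave 2 members at day 7 of 37 tested, beside 1.24% of all genes in either direction. Txnip differed by 1.08 (95% interval 0.67 to 1.49, edgeR adjusted p = 3.76e-04), being at 0.68 in AT2 cells and at −0.33 in endothelial cells. Mt1 differed by −0.89 (−1.24 to −0.53, adjusted p = 9.35e-04), but this call was lost without β1 fl/fl mouse 1 (−0.56, adjusted p = 0.233). Genotype and sex went together at day 7 and sex was not a covariate in this comparison, so the 2 cannot be told apart here. At day 21, 1 member was lower, Gsta4 (−3.33, adjusted p = 0.00279), beside 0.668% lower of all genes. That call was lost with the AT2 share subtracted (adjusted p = 0.404) and without β1 AT2-KO mouse 2 (0.293). Gclc differed by 0.54 at day 21 (95% interval 0.01 to 1.07, adjusted p = 0.565), so its AT2 rise was not shown to exceed the endothelial difference. Subtracting the AT2 share cannot settle this, since the share exceeds the Gclc measured in the β1 AT2-KO endothelial library. Of 75 other pathway genes, Slc3a2, the partner chain of the cystine transporter (0.91), and Sqstm1 (0.70, adjusted p = 0.0334) differed at day 21, and Gpx8 (−1.15) and Chac1, at 0 in the β1 AT2-KO AT2 cells, at day 7.

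In mesenchymal cells, 0 of 31 members passed between genotypes at day 7 and 0 at day 21 by edgeR, beside 0.133% and 0.0498% of all genes, and 0 passed between LPS and PBS, beside 0.332%. Between genotypes, 0 members at day 7 and 1 at day 21 had an unadjusted p under 0.05, beside 300 and 680 of 6026 genes. The medians were 0.09 over members and −0.01 over all genes at day 7, −0.35 and −0.03 at day 21, and 1.08 and 0.48 for LPS against PBS, where the PBS group is 1 mouse of 7 cells. Mt1 had 4766, 1699 and 1033 CPM in β1 fl/fl and 5770, 4452 and 3101 CPM in β1 AT2-KO mice at day 7, and the groups overlapped (log2 difference 0.85, adjusted p = 1). Mt1 passed without β1 fl/fl mouse 1 (1.76, adjusted p = 0.0278).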

How the data were processed

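Single cells of mouse lung were captured with a droplet 5′ kit and hashtag antibodies. Per the labels and the study's methods, the authors aligned reads to mm10 with Cell Ranger 3.1 and deposited raw UMI counts per gene and cell; Seurat 4.1.0 is named in the submitters' processing notes. The authors' correction for free RNA, doublet removal and cell filter are not in the deposited counts. All values here were computed from those counts, with Gm42418 removed.

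The cell filter required 700 genes or more and a mitochondrial share of UMIs between 0.1 and 15%. AT2 cells had at least 5% of UMIs from Sftpc, at least 1 Epcam UMI and no Cdh5, Pecam1 or Col1a2. Endothelial cells had at least 2 UMIs of Cdh5 and Pecam1 together and no Epcam or Col1a2. Mesenchymal cells had at least 2 Col1a2 UMIs and no Cdh5, Pecam1 or Epcam. Cells were assigned to mice by 1 hashtag at 4 times its background or more, which also removed doublets across mice. Counts were summed per mouse with at least 5 cells of a class and fitted with edgeR 4.0.16 in R 4.3.3 (TMM, filterByExpr, quasi-likelihood F test, all 5 groups in the fit, Benjamini-Hochberg over all genes tested, threshold 0.05). Comparisons between classes were fitted with mouse as a block, since both classes came from the same mice. Labels gave groups no shared replicate numbers. Intervals are 95% and cover counting error only where they are Poisson, as does the limit of 3 UMIs behind a count of 0. The fitting code was tested on simulated data.

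Alternatives were DESeq2 1.42.0 size factors and Wald test, no filter on low counts, only the groups compared, an AT2 gate at 10%, another hashtag rule (at least 10 counts and 3 times the next tag), at least 10 cells per mouse, removal of Scrublet doublets (scanpy 1.11.5), sex as a covariate and leaving out each mouse. Subtraction of the AT2 RNA share, the estimate of mesenchymal RNA in endothelial cells and at least 2 cells per mouse were chosen after seeing the data. The 40 members, and 86 other genes of these pathways, were chosen with earlier results of these data known. Values per mouse are given for Nfe2l2, Keap1, Gclc, Gclm, Slc7a11, Hmox1 and Nqo1 and for members past the threshold, up to 8 per endothelial or mesenchymal comparison by adjusted p, and pathway genes up to 5 per AT2 comparison; members with an unadjusted p under 0.05 were added after their values were seen. Promoter windows are from RefSeq (GRCm38.p6) and gene positions from GENCODE M21.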

Additional observations from a re-analysis of the deposited data

Results flagged for a closer look

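The genotype difference of 3 members differed between AT2 and endothelial cells of the same mice by a test of the difference itself (edgeR interaction term). For Gsta4 at day 21 the difference of differences was −3.33, on 1 to 14 UMIs per endothelial mouse where any was found. For Mt1 at day 7 it was −0.89, being at −0.25 in AT2 and at 0.75 in endothelial cells. For Txnip at day 7 it was 1.08, the only one of the 3 that was called without each mouse in turn. Leaving out mice does not separate genotype from sex, which went together at day 7.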

How the results depend on the processing

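With no filter on low counts, AT2 cells gave 2 of 40 members at day 7 (Cat and Txnip), beside 207 of 15972 genes. At day 21 they gave 4 (Gclc, Gsr, Mt1 and Txn1), beside 308 genes, and for genotype by time 1, beside 89 genes. LPS against PBS also gave members in AT2 and mesenchymal cells, but with 1 mouse given PBS. With only the 2 groups compared, AT2 cells at day 21 gave 5 of 35 members (Cat, Gclc, Gpx4, Gstm1 and Txn1), beside 330 of 8806 genes. Endothelial cells at day 21 gave 0 of 28, beside 127 of 7240 genes. For AT2 cells at day 21, sex as a covariate gave Gclc and Gsr, beside 183 of 7845 genes. The DESeq2 Wald test gave Gclc, Gpx4 and Txn1 there, beside 199 of 2521 genes. For LPS against PBS in AT2 cells, the other hashtag rule, the 10% gate and at least 2 cells per mouse each gave 0. Genotype by time gave 1, Gclc, with DESeq2 size factors (beside 42 of 7845 genes), the DESeq2 Wald test (50 of 2825), doublets removed (46 of 7437) or at least 10 cells (40 of 6355). With sex as a covariate, endothelial cells gave 1 of 38 members at day 7 (Me1) and 0 at day 21, beside 80 and 83 of 11740 genes. Mesenchymal LPS against PBS gave 2 of 24 members with at least 2 cells per mouse, beside 141 of 3737 genes. The DESeq2 Wald test of that comparison also gave members, but it rests on 1 mouse given PBS. The cause of these shifts was not tested.

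Leaving out each mouse in turn gave 0 to 1 members in AT2 cells at day 7, 1 to 2 at day 21 and 0 to 1 for genotype by time. Genes called over these fits were 43 to 124, 79 to 169 and 14 to 49. Endothelial cells gave 1 to 2 members at day 7, 0 to 0 at day 21 and 12 to 15 for LPS against PBS, beside 144 to 306, 14 to 51 and 2252 to 3074 genes. Mesenchymal cells at day 7 gave 0 to 1, beside 3 to 34 genes. The AT2 against endothelial differences gave 1 to 3 at day 7 and 0 to 2 at day 21, beside 98 to 150 and 98 to 121 genes. AT2 LPS against PBS gave 1 without each LPS-treated mouse, and the fit without the only PBS mouse could not be made. Among the genes named in the genotype comparisons, 4 uncalled values changed sign. Nfe2l2 in AT2 cells at day 7 went to −0.0458 with sex as a covariate and to −0.0168 without β1 AT2-KO mouse 2 (up to 0.418 over the mice left out), Hmox1 at day 7 to 0.0875 without β1 fl/fl mouse 1 (down to −0.344), and Gclm at day 21 to −0.399 without β1 fl/fl mouse 3 (up to 0.512). In level between AT2 and endothelial cells, Srxn1 and Gsr turned from uncalled negative values to called positive ones (1.12 and 0.71) without the only PBS mouse. With the AT2 share subtracted, endothelial Gclc at day 21 turned from 0.45 to −3.59. Without the block for mouse, 31 members differed in level between AT2 and endothelial cells, against 30 with it, and 19 between mesenchymal and endothelial cells, where the number was 19 with it too. In the main fits, depth kept Slc7a11 out of every test. It kept Nqo1 and Gsto1 out of the tests with AT2 cells and of those between mesenchymal groups. Gpx2 was tested only in comparisons with AT2 cells. Depth also limits all PBS values of AT2 and mesenchymal cells.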

Other observations

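Several members differed in AT2 level between the libraries of day 7 and day 21 in both genotypes. These are values without a test, since day and epithelial enrichment cannot be told apart. Mt1 ranged from 313 to 847 CPM over the 6 LPS-treated mice of day 7 and from 123 to 294 CPM over the 6 of day 21. Transketolase, Tkt, ranged from 148 to 184 and from 206 to 296 CPM, and Txnrd1 from 47.9 to 70.6 and from 84.7 to 108 CPM. For these genes the mice of the separate days did not overlap. Further members also separated, among them Prdx1 (793 to 1015 and 647 to 730 CPM), Gstm1 (25.5 to 56.3 and 58.6 to 106 CPM) and Prdx3 (81.3 to 131 and 72.2 to 77.7 CPM). The share of all genes that separate in this way was not counted, so the separation cannot be read as particular to these members.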
